A study of Mus musculus with 79 samples.

Results

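The 9 genes described here encode proteins of the myelin sheath or of the cells that build it: Mbp, Mog, Mag, Mobp, Cnp, Mal, Opalin, Ermn and Bcas1. They were chosen by name from the 25965 genes of an RNA-sequencing (RNA-seq) table of adult mouse hypothalamus, and all 9 are in it. The choice was made with the RNA differences between genotypes already known, so those differences are only described. Where a fit over all genes called one of the 9 in RNA, the call is given but is no support for a difference. Histone marks, measured in libraries from other animals, did not enter the choice and were tested.

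Oligodendrocytes wrap axons of the central nervous system in myelin, a stack of membrane that is compacted and rich in cholesterol and galactolipids. They arise from Pdgfra-positive precursors, pass through a short newly formed state and then express the sheath proteins together, under transcription factors that include Sox10, Olig2 and Myrf. The 3 marks on histone H3 measured here have known places on genes. H3K4me3 lies at active starts, H3K27me3 is laid down by Polycomb over repressed genes, and H3K36me3 covers transcribed gene bodies and is bound by the PWWP domain of DNMT3A, a de novo DNA methyltransferase.

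The study compared mice with a point mutation in that domain with wild-type mice. Hypothalamus was taken at about 14 weeks of age from Dnmt3a +/+ mice and from Δ/D329A mice, in which the maternal allele was deleted by an oocyte-specific Zp3-driven Cre and the paternal allele, the only functional copy, carried the D329A substitution. The change is therefore present in every cell of the animal and is not particular to oligodendrocytes. RNA-seq covered 5 +/+ and 4 Δ/D329A mice, and chromatin immunoprecipitation (ChIP-seq) covered 3 libraries of each genotype for each mark and for the input, 24 in all. All 9 RNA-seq libraries carried 2694 to 7044 reads of Xist and at most 1 read of Ddx3y, and are from females. The ChIP-seq inputs covered the X chromosome at 0.415 to 0.429 of the autosomes and the Y chromosome at 0.0461 to 0.0488, and are from males. RNA and marks therefore come from different animals. Each genotype comparison lies within a single sex, but RNA and marks cannot be compared in the same sex.

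RNA-seq depth on genes was 5617932 to 9976687 reads in the +/+ libraries and 3874084 to 6598737 in the Δ/D329A libraries. Mapped ChIP-seq reads ranged from 12676361 for an H3K4me3 library to 30207875 for an input. Dnmt3a itself had 1.91 ± 0.16 log2 RPKM (reads scaled by exon length and library size; SD, n = 5) in +/+ and 1.63 ± 0.09 (n = 4) in Δ/D329A libraries, and a point mutation and a deletion of 1 allele are not read by such a level. Markers of hypothalamic neurons were present in every library, with a summed level of 368 to 776 RPKM over 10 genes in +/+ and 431 to 640 in Δ/D329A. One H3K4me3 library, Δ/D329A replicate 1, stood low at promoters: the median of its 1000 highest promoters was 28.1 RPM per tile, against 35.6 to 41.8 in the other 5. It was not low over the whole genome, where its median tile held 5 reads against 1 to 3 in the other 5. RPM are reads scaled to library size alone.

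Promoter sequences are shown for 3 of the genes because they span the H3K4me3 values described below. Mobp and Ermn had the lowest differences in RNA and in promoter H3K4me3, and Cnp had the most CpG dinucleotides and, with Mbp, the most H3K4me3. RefSeq (GRCm38.p6) windows from 250 bases before to 50 after the start were matched for 7 of the 9 genes. Capitals mark the letters ACAAAG or, on the other strand, CTTTGT, which Sox-family factors such as Sox10 are known to bind. Mobp lies at chr9:120149492-120149791 on the plus strand, Ermn at chr2:58052815-58053114 on the minus strand and Cnp at chr11:100574689-100574988 on the plus strand.
Mobp: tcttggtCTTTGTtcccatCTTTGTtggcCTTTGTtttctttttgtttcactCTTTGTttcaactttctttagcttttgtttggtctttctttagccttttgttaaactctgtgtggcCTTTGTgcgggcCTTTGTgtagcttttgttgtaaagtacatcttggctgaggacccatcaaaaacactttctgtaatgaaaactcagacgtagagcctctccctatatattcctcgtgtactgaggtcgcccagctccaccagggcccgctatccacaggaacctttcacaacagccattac
Ermn: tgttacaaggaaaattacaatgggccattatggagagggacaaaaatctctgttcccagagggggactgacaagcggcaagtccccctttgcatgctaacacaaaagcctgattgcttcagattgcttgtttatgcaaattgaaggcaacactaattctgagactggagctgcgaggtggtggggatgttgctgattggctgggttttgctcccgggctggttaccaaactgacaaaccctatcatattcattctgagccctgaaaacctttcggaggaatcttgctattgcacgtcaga
Cnp: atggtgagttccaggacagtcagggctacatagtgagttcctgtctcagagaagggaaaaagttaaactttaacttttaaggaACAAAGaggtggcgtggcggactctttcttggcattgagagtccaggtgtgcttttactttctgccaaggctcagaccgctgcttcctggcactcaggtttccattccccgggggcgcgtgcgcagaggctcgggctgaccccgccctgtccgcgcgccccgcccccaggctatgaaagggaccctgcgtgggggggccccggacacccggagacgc

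The Mobp window held 6 copies of these letters, and it was the only 1 of 32851 promoters of the same length with that many. At least 1 copy is common: 18.7% of all promoters had one and 2.37% had 2 or more. Opalin had 2 copies, Cnp 1 and Mag 1 in each of 2 windows that overlap and none in the other, and the Ermn, Mal and Mog windows had none. The letters CTGGCAC or CTGGTAC, taken for Myrf and searched on both strands, stood once each in the Cnp, Mog and Opalin windows and in the same 2 Mag windows, against 7.10% of all promoters, and in none of the others. No match of one set overlapped a match of the other in these windows, and a match is a run of letters, not a known site. CpG dinucleotides numbered 17 in the Cnp window, 8 for Mal, 5 for Mobp and for Ermn, 4 for Opalin and 3 for Mog, with 7 as the median of all promoters.

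Bcas1 was the gene that stood apart in RNA. It encodes a protein found in early myelinating oligodendrocytes and in the sheath, and lies on chromosome 2 from 170346991 to 170427845 (GRCm38, minus strand). Its level was 3.89, 4.35, 3.94, 3.76 and 3.97 log2 RPKM in +/+ replicates 1 to 5 and 5.31, 5.42, 5.86 and 6.30 in Δ/D329A replicates 1 to 4. The groups did not overlap, and the difference of means was 1.74 on the log2 scale (SE 0.22), or 3.34-fold. The reads behind these values numbered 778 to 1201 in the +/+ libraries and 1702 to 3315 in the shallower Δ/D329A libraries. Bcas1 was the only one of the 9 called in the fit over all genes (limma, adjusted p under 0.01), which called 0.107% of 17839 genes, 0.0841% as higher and 0.0224% as lower. These shares are given as background only, since this contrast chose the gene. The difference lay between 1.55 and 1.88 over all 17 other settings. But Bcas1 passed the adjusted p of 0.01 in 5 of them, and a pass is no support, since this contrast chose the gene. It missed it under quantile normalisation, without the low-value filter, with a replicate block, and when any single library was left out.

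**Figure D1:**
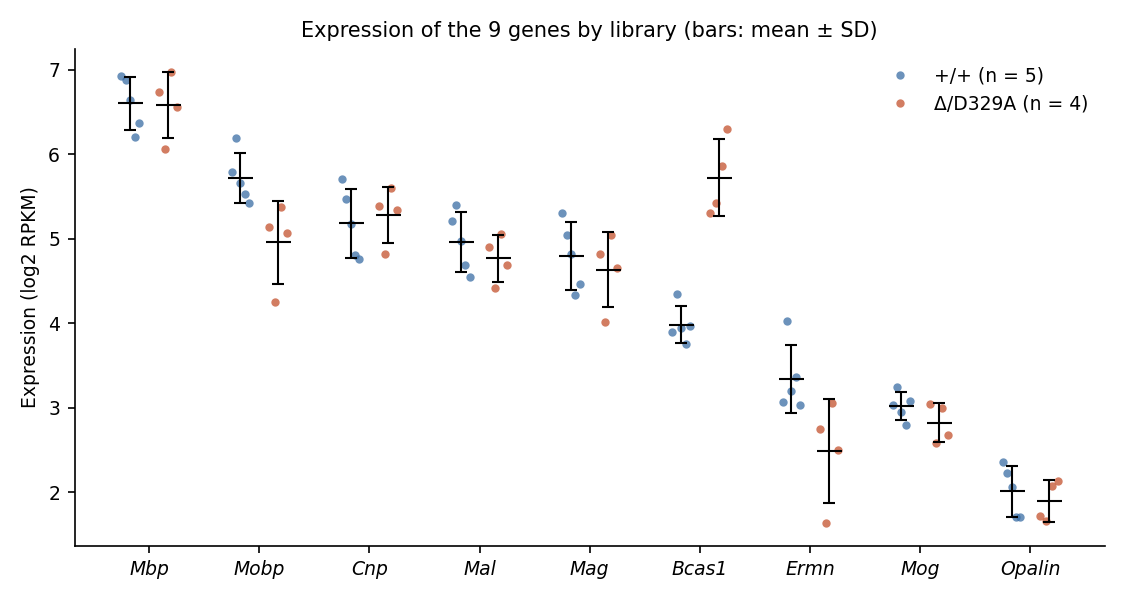
Level of each of the 9 genes in log2 RPKM (vertical axis) in the 5 +/+ and 4 Δ/D329A RNA-seq libraries. Points are libraries and bars are group means ± SD. Bcas1 values of 5.31 to 6.30 in Δ/D329A lie above the highest +/+ value of 4.35, while Mobp values of 4.25 to 5.38 lie below the lowest +/+ value of 5.43.

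Mobp and Ermn had lower means in the mutants. Mobp, a small basic protein of compact central myelin (chromosome 9, 120149742 to 120181484, plus strand), had 5.79, 6.19, 5.66, 5.53 and 5.43 log2 RPKM in +/+ and 5.13, 4.25, 5.38 and 5.07 in Δ/D329A libraries. The groups did not overlap, although the gap between 5.43 and 5.38 was small, and the difference was -0.76 (SE 0.25), a mean 1.70-fold lower. Ermn, an actin-binding protein of late oligodendrocytes (chromosome 2, 58045113 to 58052864, minus strand), had 3.07, 4.02, 3.20, 3.37 and 3.04 in +/+ and 2.75, 1.64, 3.06 and 2.51 in Δ/D329A. Only the third mutant library reached into the +/+ range, and the difference was -0.85 (SE 0.29), a mean 1.80-fold lower. Neither passed in the fit over all genes. DESeq2 on recovered reads called Mobp, and it called 0.804% of genes as higher and 0.712% as lower. The Mobp call is no support, since the RNA contrast was known when the genes were chosen. In the limma fit 1.78% of genes had all mutant values above all +/+ values and 1.23% had all of them below. Among the 9, Bcas1 was the one gene of the first kind and Mobp of the second, and nothing is read from these counts.

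The other 6 genes had overlapping values in the 2 genotypes. Mbp, the abundant protein that draws the cytoplasmic faces of the membrane together (chromosome 18, 82475146 to 82585637), had 6.60 ± 0.31 log2 RPKM (SD, n = 5) in +/+ and 6.58 ± 0.39 (n = 4) in Δ/D329A, a difference of -0.02 (SE 0.24). Cnp, a phosphodiesterase of non-compact myelin (chromosome 11, 100574904 to 100591729), had 5.18 ± 0.41 and 5.29 ± 0.33, and was with Bcas1 the only gene with a higher mutant mean, although its sign held in 14 of 17 other settings, as that of Mbp did. Cnp overlaps Dnajc7, which had up to 1126 reads in a library, and whether the counting used strand is not stated, so reads in the shared part may belong to either gene. Mal, a raft-associated proteolipid (chromosome 2, 127633226 to 127656695), had 4.96 ± 0.35 and 4.77 ± 0.28. Mag, an adhesion protein of the membrane next to the axon (chromosome 7, 30899183 to 30914327), had 4.79 ± 0.40 and 4.63 ± 0.44. Mog, which sits on the outer surface of the sheath (chromosome 17, 37010746 to 37023398), had 3.02 ± 0.17 and 2.82 ± 0.23. Opalin, a membrane glycoprotein of oligodendrocytes (chromosome 19, 41062474 to 41077113), had 2.01 ± 0.30 and 1.90 ± 0.24. Their differences ran from -0.20 for Mog to 0.10 for Cnp. In bulk tissue, fewer oligodendrocytes and less RNA per cell cannot be told apart.

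The order of the 9 levels, which are per length, changed at 1 place in particular. In +/+ libraries it ran from Mbp through Mobp, Cnp, Mal, Mag, Bcas1, Ermn and Mog to Opalin. Neighbours kept this order in all 5 libraries except Mal over Mag and Ermn over Mog, each in 4 of 5. In Δ/D329A libraries Bcas1 had moved from rank 6 to rank 2, above Cnp in 3 of 4 libraries and below Mbp in 4 of 4. Mobp moved from rank 2 to rank 4, below Cnp in all 4. The levels of Mal and Mag next to each other differed by 0.17 ± 0.19 in +/+ (SD, n = 5) and 0.13 ± 0.18 in Δ/D329A (n = 4), which is less than 1 SD.

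Set against its companions, Bcas1 changed sides. The mean of the other 8 genes was 4.45 ± 0.29 log2 RPKM in +/+ and 4.18 ± 0.36 in Δ/D329A. Bcas1 lay below that mean in every +/+ library, by -0.78, -0.46, -0.49, -0.42 and -0.20, and above it in every Δ/D329A library, by 0.99, 1.74, 1.34 and 2.1. The mutant library with the lowest mean of the other 8, replicate 2 at 3.68, had a Bcas1 level of 5.42, above every +/+ library. Replicate 2 was the lowest of the 4 mutant libraries for all 8 genes other than Bcas1.

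**Figure D2:**
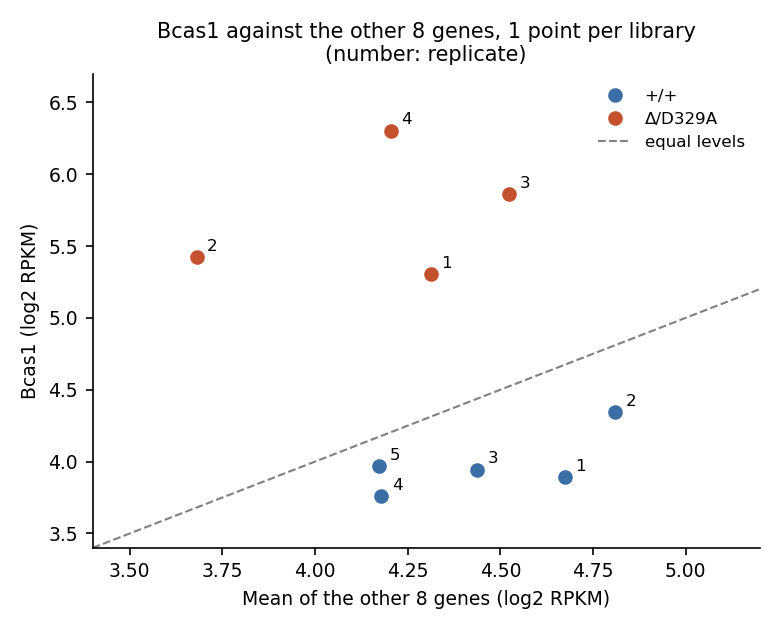
Bcas1 level against the mean level of the other 8 genes, both in log2 RPKM, with 1 point per RNA-seq library and the line of equality. The 5 +/+ libraries lie under the line by 0.20 to 0.78 and the 4 Δ/D329A libraries over it by 0.99 to 2.1.

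The other 8 genes varied together among libraries of one genotype. After the mean of each genotype was removed, Pearson's r over the 9 libraries lay between 0.31 and 0.99 in their 28 pairs, with a median of 0.79. Bcas1 had r of 0.12 to 0.65 with these 8, median 0.36. The points share library and scaling: the library medians over all genes ran from 0.81 to 1.49 log2 RPKM, and after each library was centred on its own median the 2 medians of r were 0.58 and 0.29. These are descriptions over 9 libraries. Likeness was taken from r before that centring, among 11497 genes, so it includes the shared library scaling. Those most like the mean of the other 8 were Slc14a1 (r = 0.99), Rhoa (0.99), Wee1 (0.98), S100b (0.98) and Parp12 (0.98). Those most like Bcas1 were Stmn4 (0.97), Supt3h (0.97), Amd1 (0.95), Pou3f2 (0.94) and Ccpg1 (0.94).

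Of the genes beside Bcas1, Zfp217, 198888 bp from it on the lower side, had a difference of -0.53 (SE 0.36). Gm14259, which overlaps Bcas1 on the other strand, had a higher mutant mean, as Bcas1 had, with a difference of 1.36 (SE 0.71) that did not pass (limma adjusted p = 0.39). It rested on 1 to 5 reads in +/+ and 1 to 13 in Δ/D329A libraries, where Bcas1 had at least 778, and the groups overlapped. The overlapping 1700040N02Rik, and Cyp24a1, 54863 bp away on the upper side, also had higher mutant means, but on 0 to 2 reads per library, too few to give a difference. Next to Mobp, Rpsa, a ribosomal protein gene 17373 bp below its start, had 5.49 ± 0.26 log2 RPKM in +/+ and 6.25 ± 0.12 in Δ/D329A. That is a difference of 0.75 (SE 0.17) opposite in sign to Mobp, with no overlap, and it did not pass (limma adjusted p = 0.22). Myrip, 122452 bp above Mobp, had a difference of 0.34 (SE 0.20).

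Other genes of myelin and of the oligodendrocyte lineage were taken as lists, and limma called none of their genes. Of 14 other sheath and junction genes tested, 10 had lower and 4 higher mutant means, with a median difference of -0.17 against 0.06 over all genes. Their extremes were Tspan2, a tetraspanin, at -0.55 (SE 0.18) and Gjc3, a connexin, at 0.54 (SE 0.16), and unadjusted p was under 0.05 for 2 of the 14, against 7.62% of all genes. edgeR called 0 of them and DESeq2 called these 2. Over all genes edgeR called 0.288% as higher and 0.266% as lower, and DESeq2 called 0.804% as higher and 0.712% as lower. Of 9 tested myelin lipid genes 7 were lower, with a median of -0.33, from Aspa, which frees acetate from N-acetylaspartate, at -0.68 (SE 0.25) to Plin3, a lipid droplet protein, at 0.78 (SE 0.27). Of these 9, limma and edgeR called 0, 4 had an unadjusted p under 0.05, and DESeq2 called Plin3 as higher and the desaturases Scd1 and Scd2 as lower. All 12 cholesterol synthesis genes had lower mutant means under every scaling tried, with a median of -0.36. The lowest was Idi1, isopentenyl diphosphate isomerase, at -0.72 (SE 0.20). None was called by limma, 4 had an unadjusted p under 0.05, edgeR called 1 (Sqle) and DESeq2 called 4 (Hmgcs1, Idi1, Sc5d and Sqle), all lower.

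Lists for stages of the lineage had medians below the 0.06 of all genes. Transcription factors had a median of -0.12 over 9 genes, newly formed oligodendrocyte genes -0.07 over 11, mature genes -0.15 over 20 and precursor genes -0.20 over 9. In these 4 lists limma called 0 genes, with 1, 2, 2 and 2 at an unadjusted p under 0.05, where 7.62% of all genes were. edgeR called Gpr37 among the mature and Pdgfra among the precursor genes, both lower, and DESeq2 called these and Adamts4, also lower. Over all genes edgeR called 0.266% and DESeq2 0.712% as lower. Enpp6, a marker of newly formed oligodendrocytes as Bcas1 is, had -0.41 ± 0.42 log2 RPKM in +/+ (n = 5) and -1.70 ± 0.75 in Δ/D329A (n = 4), a difference of -1.30 (SE 0.35) in the opposite direction to Bcas1 that did not pass. Tcf7l2, a factor of the same stage that thalamic neurons also express, had the highest difference of the 2 lineage lists that hold it, 0.73 (SE 0.22). Tcf7l2 is also counted in the thalamic and habenular list below. The extremes of the remaining lists were Nkx6-2 at -0.55 among the factors, Gpr37 at -0.70 and Cryab at 0.38 among the mature genes, and Pdgfra at -0.55 and Susd5 at 0.58 among the precursor genes.

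Markers of other cell types in and around the hypothalamus were read as well. Their part in the Bcas1 and Mobp values was not tested. limma called 0 genes of these lists. Before adjustment 1 astrocyte, 1 microglia, 1 hypothalamic neuron, 1 Schwann cell and 2 choroid plexus genes had a limma p under 0.05. Among the neuron, endothelial, ependymal and pituitary genes 0 did, and 7.62% of all genes did. Neuron markers had a median difference of 0.04, from Gad1 at -0.13 to Rbfox3 at 0.36, and astrocyte markers 0.21, from Slc1a2 at -0.30 to Gfap at 0.61. Microglia markers had 0.32, from P2ry12 at -0.22 to Trem2 at 0.82, endothelial markers 0.10, from Slco1a4 at -0.30 to Ly6c1 at 0.26, and ependymal and tanycyte markers 0.09, from Col25a1 at -0.03 to Ccdc153 at 0.40. Hypothalamic neuron genes had 0.05, from Pomc at -1.06 to Crh at 0.71, and pituitary genes 0.03, from Prl at -1.06 to Gh at 1.93. Thalamic and habenular genes had a median of 0.52, with 6 of 7 higher and 3 at an unadjusted p under 0.05. Their summed level was 15.4 to 27.3 RPKM over 8 genes in +/+ and 19.3 to 40.6 in Δ/D329A, and their extremes were Tac2 at -0.36 and Gbx2 at 1.79. Choroid plexus genes had 0.08, turning to -0.26 under quantile normalisation, with Kl at -0.43 and Ttr at 1.82. Schwann cell genes, which would mark peripheral myelin, had 0.01 over 3 genes, turning just below 0 under median centring and quantile normalisation, and ran from Scn7a at -0.60 to Egr2 at 0.26. DESeq2 called Gbx2 and Rora of the thalamic list and Ttr of the choroid plexus list, all higher, and edgeR called none of these. Over all genes DESeq2 called 0.804% and edgeR 0.288% as higher.

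H3K4me3 was read as the mean RPM of the 2 kb tiles centred between 1.5 kb before and 500 bp after a start. At the promoters of the 9 genes limma called no difference (0 of 9, with 0 of 25952 promoters called in either direction, 0% background, and 0 of the 9 at an unadjusted p under 0.05, where 3.47% of all promoters were). edgeR called 0 of the 8 that passed its filter (background 0.383%). Mutant means were lower at 8 of the 9, with a median log2 difference of -0.46 against -0.07 over all promoters, of which 69.9% were below 0. Under median centring of the libraries, which moved the median of all promoters from -0.07 to 0.14, 6 of the 9 were lower with a median of -0.25, and Mbp and Cnp turned to higher values.

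**Figure D3:**
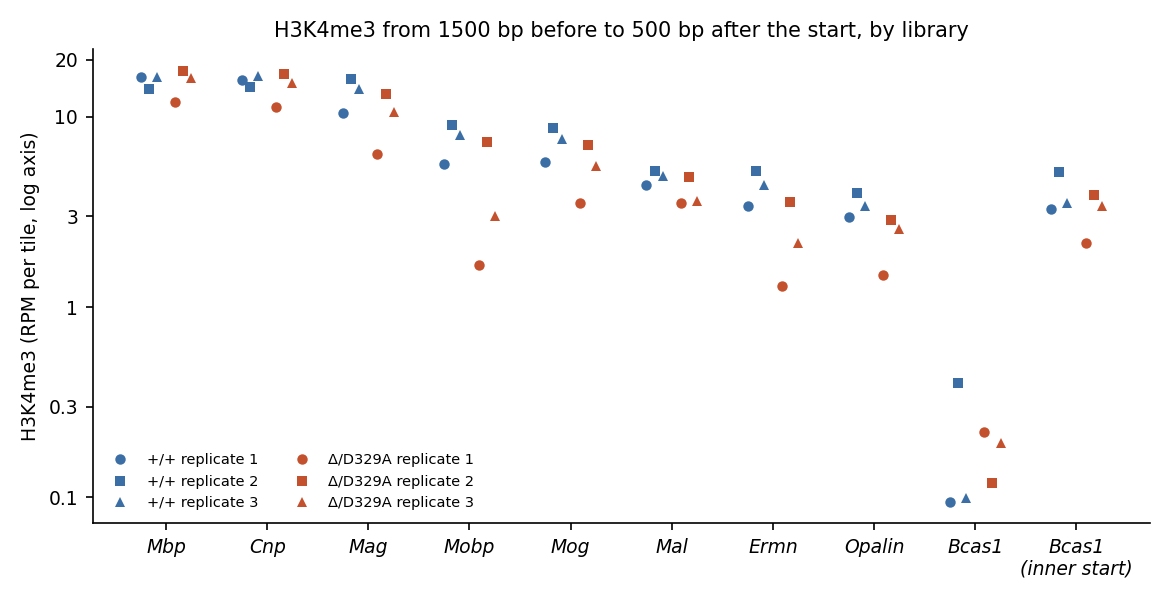
H3K4me3 at the promoter of each of the 9 genes and at an inner annotated start of Bcas1, in the 3 +/+ and 3 Δ/D329A libraries. Values are mean RPM per 2 kb tile (vertical log axis), and points are libraries. Mbp and Cnp reach 11.2 to 17.5 RPM in both genotypes, and the annotated first start of Bcas1 stays at 0.09 to 0.40.

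Mobp had 5.63, 9.01 and 8.08 RPM in +/+ and 1.66, 7.42 and 3.0 in Δ/D329A, a log2 difference of -1.13 (SE 0.55, limma adjusted p = 1.0). Ermn had 3.38, 5.22 and 4.37 RPM in +/+ and 1.29, 3.59 and 2.16 in Δ/D329A, a difference of -0.95 (SE 0.40, limma adjusted p = 1.0). Mutant replicate 2 overlapped the +/+ values in both, and mutant replicate 1, the library that stood low at promoters, was the lowest. Without it the differences were -0.64 and -0.59, and under median centring -0.92 and -0.74. When only promoters with a mean of at least 0.5 RPM were fitted, which left 16482 regions and 277 calls, both passed, Mobp with an adjusted p of 0.00069 and Ermn with 0.036 (limma). In the other 13 settings neither passed, edgeR among them. These are also the 2 genes with the lowest RNA differences, measured in animals of the other sex.

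Opalin was the 1 promoter of the 9 whose groups did not overlap, with 2.97, 3.99 and 3.38 RPM in +/+ and 1.47, 2.88 and 2.58 in Δ/D329A. All mutant values lay below all +/+ values at 4.22% of all promoters, and all above at 1.83%, so 1 of 9 is not set apart by this count. Mbp had 16.3, 14.0 and 16.3 RPM in +/+ and 12, 17.5 and 15.9 in Δ/D329A, and Cnp had 15.7, 14.4 and 16.5 and 11.2, 16.8 and 15. Both sets were interleaved, as the RNA of these genes was. The Mbp values are those of its first annotated start. Another annotated start lies 79.3 kb into the gene, and which start the Mbp RNA came from was not tested. Mag, Mog and Mal had differences of -0.46 (SE 0.31), -0.48 (SE 0.30) and -0.28 (SE 0.17).

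The annotated first start of Bcas1 carried almost no H3K4me3, with 0.09 to 0.40 RPM in the 6 libraries, under the input at the same place, which had 0.74 to 1.36. An inner start of a protein-coding transcript, 21.3 kb into the gene at position 170406509, carried 3.29, 5.12 and 3.55 RPM in +/+ and 2.16, 3.90 and 3.39 in Δ/D329A. The groups overlapped there, and the log2 difference was -0.34 (SE 0.29, limma adjusted p = 1.0 over 35039 starts). This window narrowly left out the tile centred at 21.8 kb, which also covers the inner start and is described below. With overlapping tiles, which take that tile in, the difference was -0.50 (SE 0.26) and did not pass. H3K4me3 at the inner start was thus not higher by value in the mutant males, while Bcas1 RNA was higher by value in the mutant females. The overlapping Gm14259 also lies over this inner start. Mobp and Mbp have inner starts too, with differences of -0.94 (SE 0.48) and -0.33 (SE 0.40).

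Along the whole of Bcas1 the highest H3K4me3 tile was centred 21.8 kb from the first start and covers the inner start. It had 16.3, 20.5 and 17.3 RPM in +/+ and 7.84, 15.9 and 13.2 in Δ/D329A, without overlap of the genotypes. A smaller rise near 15.8 kb had 4.68, 4.59 and 5.25 RPM in +/+ and 1.69, 2.45 and 3.10 in Δ/D329A. The same tile held the highest H3K27me3 of the gene, with 2.20, 1.44 and 2.23 RPM in +/+ and 3.50, 3.48 and 4.11 in Δ/D329A. The profile held 93 tiles, which overlap and share libraries, from 1.5 kb before the first start to beyond the gene's end. Over these 93 tiles, mean H3K27me3 was higher in the mutant in 89 and mean H3K4me3 in 42. Mean H3K36me3 was higher in 30 of the 93 tiles, and its highest tile, at 31.8 kb, had a mean of 1.71 RPM in +/+ and 1.58 in Δ/D329A. These tiles were singled out after their values were seen, and no test was made of them.

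**Figure D4:**
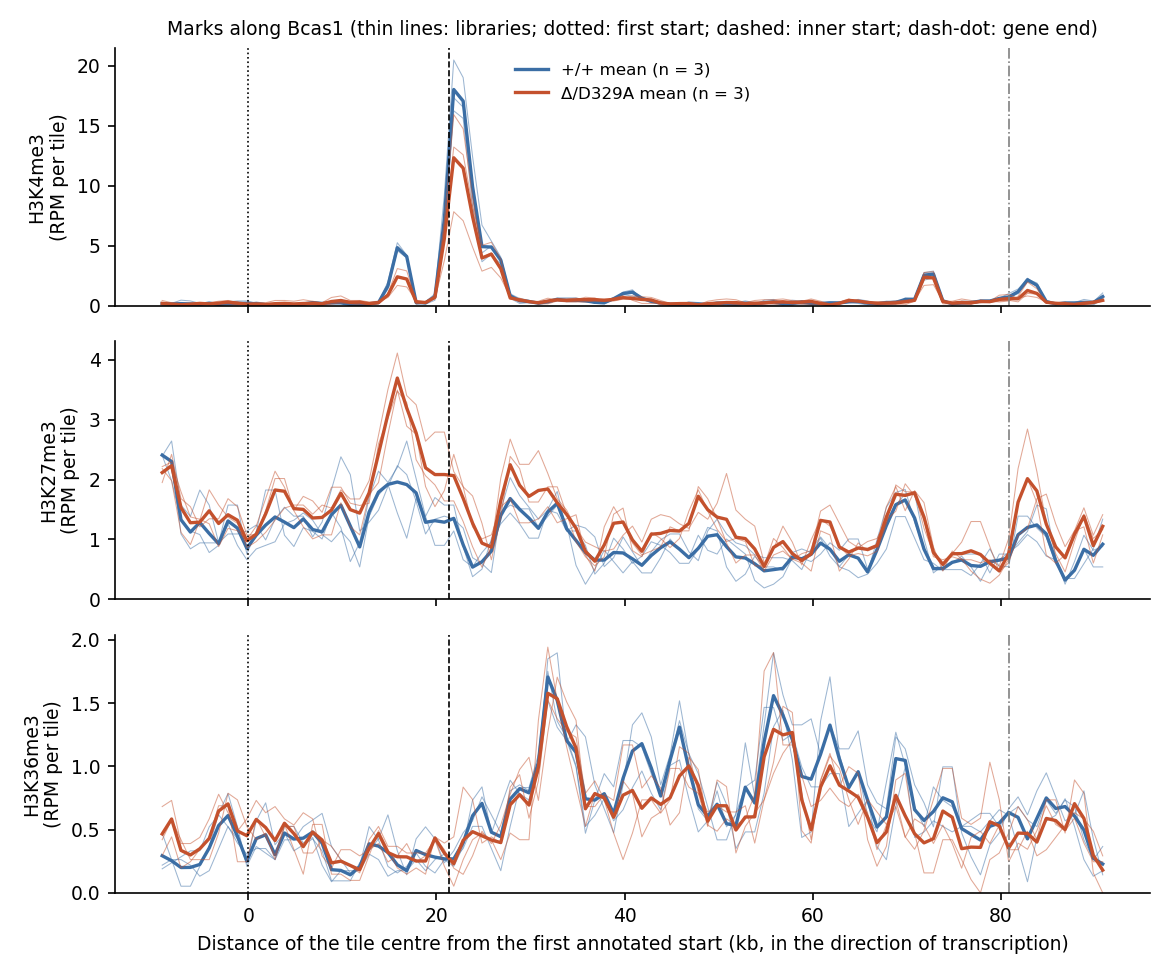
Mean RPM per 2 kb tile of H3K4me3, H3K27me3 and H3K36me3 along Bcas1 by distance in kb from the annotated first start, for +/+ and Δ/D329A libraries (3 each). H3K4me3 peaks at 21.8 kb (18.0 against 12.3 RPM) and H3K27me3 at 15.8 kb (1.96 against 3.69 RPM).

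Over gene bodies, from 500 bp past the start to the gene's end, Bcas1 had more H3K27me3 in the mutant by value. Its means over 81 tiles were 1.03, 0.91 and 1.10 RPM in +/+ and 1.24, 1.44 and 1.42 in Δ/D329A, without overlap. The log2 difference of 0.40 (SE 0.10) did not pass (limma adjusted p = 0.34), and lay between 0.31 and 0.50 in all 14 other settings with adjusted p between 0.11 and 0.60. H3K4me3 over the body was lower without overlap, with 1.15, 1.41 and 1.25 RPM in +/+ and 0.87, 1.06 and 1.05 in Δ/D329A (difference -0.33, SE 0.12, limma adjusted p = 1.0). H3K36me3 had 0.63, 0.79 and 0.70 RPM in +/+ and 0.66, 0.65 and 0.57 in Δ/D329A (difference -0.15, SE 0.10, limma adjusted p = 0.53). The mark of transcribed bodies was thus not higher by value over Bcas1 in the mutant males.

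Among the bodies of all 9 genes, no difference was called for any mark by limma or by edgeR, which over all genes called 0% of bodies for H3K4me3, 0.167% for H3K27me3 and 0.698% for H3K36me3. Over all genes limma called 0 bodies for H3K4me3 and H3K36me3, and 0.00423% as higher and 0.00423% as lower for H3K27me3. For H3K4me3 all 9 mutant means were lower, from -0.24 for Mbp to -0.99 for Ermn, with a median of -0.52 against -0.02 over all genes, of which 57.4% were below 0. Bcas1 alone had no overlap (background 2.14% higher and 4.50% lower), and 1 of the 9 had an unadjusted p under 0.05 (background 3.53%). For H3K27me3, 7 of 9 had higher means, with a median of 0.18 against -0.07, and Mog and Cnp had lower ones, -0.09 and -0.15. Bcas1 and Mbp had no overlap (background 4.95% higher and 14.7% lower), and 1 of the 9 had an unadjusted p under 0.05 (background 13%). For H3K36me3 all 9 were lower, from -0.09 for Mal to -0.47 for Mobp, with a median of -0.20 against -0.02. Mag alone had no overlap (background 7.14% higher and 14.9% lower), and 2 of the 9 had an unadjusted p under 0.05 (background 16.1%). These directions were the same under median centring, input subtraction and edgeR.

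**Figure D5:**
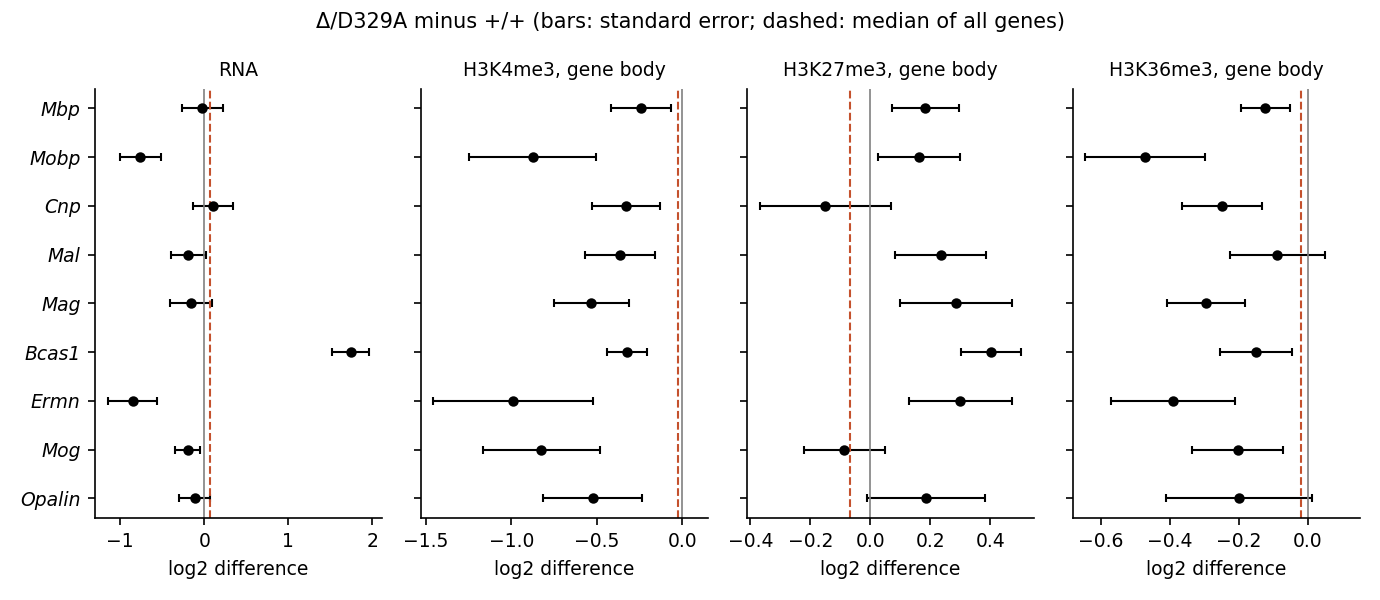
Difference of Δ/D329A and +/+ means on the log2 scale (horizontal axes) for the 9 genes in RNA and, over gene bodies, in H3K4me3, H3K27me3 and H3K36me3; points are differences, bars are 1 SE. Bcas1 stands at 1.74 in RNA and at -0.33, 0.40 and -0.15 in the marks.

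At promoters H3K27me3 varied widely among the 9 genes. It was highest at Mal, with 5.07, 3.90 and 4.86 RPM in +/+ and 3.76, 2.83 and 5.10 in Δ/D329A, a value above 97.8% of promoters. It was lowest at Cnp, with 0.07 to 0.19 and 0.00 to 0.13. Mobp had 1.65 ± 0.53 and 2.39 ± 0.58 RPM (SD, n = 3), a log2 difference of 0.52 (SE 0.27, limma adjusted p = 0.61), and Ermn had 1.37 ± 0.52 and 1.91 ± 0.12, a difference of 0.51 (SE 0.25, limma adjusted p = 0.59). At the inner Bcas1 start H3K27me3 had 1.64, 0.90 and 1.36 RPM in +/+ and 1.68, 1.78 and 2.79 in Δ/D329A, a difference of 0.64 (SE 0.27, limma adjusted p = 0.57). The mutant values there lay above all +/+ values, as at 6.06% of all starts, with 7.52% the other way. H3K36me3 at promoters was at most 0.66 RPM in every library. Mog had lower values without overlap, 0.42, 0.52 and 0.47 against 0.24, 0.27 and 0.26 RPM (limma adjusted p = 0.72, background 2.67%), and Cnp higher ones, 0.24, 0.19 and 0.24 against 0.27, 0.32 and 0.58 RPM (limma adjusted p = 0.78, background 8.99%). Over all promoters limma called 0% for H3K27me3 and, for H3K36me3, 0.0154% as higher and 0.00771% as lower. It called 0 of the 9 for either mark, with 0 and 1 at an unadjusted p under 0.05 (background 8.9% and 6.58%), and edgeR called 0 of the 6 and the 2 that passed its filter (background 1.42% and 0%). No H3K27me3 promoter of the 9 was without overlap (background 6.3% higher and 7.31% lower).

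In the related lists, H3K27me3 over bodies was higher by value at 17 of 20 mature oligodendrocyte genes (median 0.20), with 8 at an unadjusted limma p under 0.05. H3K36me3 was lower at 18 of 20 (median -0.13), with 6 at such a p. Of all bodies, 62.9% lay below 0 in H3K27me3 (median -0.07) and 56.0% in H3K36me3 (median -0.02). Such a p was found for 13% and 16.1% of all bodies. In H3K27me3, 7 of 14 sheath and junction genes and 7 of 9 myelin lipid genes were higher. In H3K36me3, 11 of 14 and 7 of 9 were lower. limma called none of the 20 mature genes. Over their bodies edgeR called Car2 and Enpp2 as lower in H3K36me3 (background 0.698%) and none in H3K27me3 (background 0.167%). At their promoters edgeR called Enpp2 as higher in H3K27me3 (background 1.42%) and as lower in H3K4me3 (background 0.383%). Over bodies, precursor genes had medians of -0.03 in H3K27me3 and 0.04 in H3K36me3.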

How the data were processed

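Hypothalamus of adult +/+ and Δ/D329A mice was measured by RNA-seq and native ChIP-seq, 1 library per animal, mark and input. Reads were trimmed, aligned to GRCm38 and quantified in SeqMonk by the authors; the submitters' processing notes name Trim Galore 0.4.3, HISAT2 2.0.5 and Bowtie2 2.3.2. The deposited RNA-seq values are log2 RPKM per gene, and the deposited ChIP-seq values are a coverage signal, reads scaled to library size (RPM) in 2000 bp tiles every 1000 bp. Whole reads were recovered from both within a tolerance of 0.02 and 0.01 reads. The RNA-seq scaling total could be recovered only up to a whole factor, and the largest candidate was used. RNA read numbers, and edgeR and DESeq2 on RNA, rest on that choice. The labels name a NEBNext Ultra RNA kit, which the study elsewhere calls strand-specific, and whether the counting used strand is not given in the sources used here. The authors dropped one more mutant RNA-seq sample for its quality.

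RNA was fitted with limma 3.58.1 (R 4.3.3, trended variance) on the log2 RPKM values of genes with at least 0.1 RPKM in 4 libraries, with a Benjamini-Hochberg adjusted p under 0.01. Marks were fitted on log2 of the mean tile signal plus 0.1 RPM over all promoters, gene bodies or starts, with an adjusted p under 0.05. Each fit was two-sided. edgeR 4.0.16 and DESeq2 1.42.0 on recovered reads were alternatives. Another, for H3K4me3 and H3K27me3, set libraries with high mitochondrial coverage apart as a block. These were +/+ replicate 3 and Δ/D329A replicates 2 and 3, a split that is uneven between genotypes. Their mitochondrial tiles had 29.5 to 44.6 RPM in H3K4me3, against 14.8 to 19.2 in the other 3 libraries. In H3K27me3 they had 18.1 to 36.8 RPM against 4.07 to 10.3. With 3 against 3 libraries an exact permutation test cannot give a p below 0.1. The starts of all protein-coding transcripts (GENCODE M21) were added after the first Bcas1 start was seen to lack H3K4me3. Genes and lists were chosen with earlier results of these data known. Named beside the 9 genes were, by rule, every called gene and the highest and lowest gene of each list, the nearest neighbours of Bcas1 and Mobp, and the 5 genes most like each pattern; genes called by DESeq2 or edgeR were named after their values were seen. Some genes of these lists are not reported here. In simulated data, limma recovered 185 of 200 genes changed by 2 on the log2 scale in RNA. For a change of 1 it recovered 37, 33 and 0 of 200 promoters in H3K4me3, H3K27me3 and H3K36me3, and 116, 139 and 184 of 200 bodies. Over all annotated starts it recovered 0, 0 and 24 of 200. A missed call at a promoter or at an inner start therefore says little. p-values measure the spread between these libraries.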

Additional observations from a re-analysis of the deposited data

How the results depend on the processing

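The RNA difference of Bcas1 kept its sign in all 17 other settings, and those of Mobp (-0.90 to -0.53) and Ermn (-1.04 to -0.57) did too. Counts over all genes moved more. In RNA the 19 calls became 34 under median centring, 32 under quantile normalisation, 11 with at least 0.5 RPKM, 77 with edgeR and 249 with DESeq2, and 1 to 19 with 1 library left out, where each mutant library mattered (2, 5, 4 and 1 calls without replicates 1 to 4). For H3K4me3 promoters the count of 0 became 28 under median centring, 277 with a mean of at least 0.5 RPM and 59 with edgeR. For H3K27me3 promoters 0 became 54, 222 and 179 in the same settings and 4 with overlapping tiles. For H3K36me3 promoters 6 became 0 under median centring, with a mean of at least 0.5 RPM, after input subtraction, with the replicate block and with edgeR, 1 with a pseudocount of 0.5 RPM, 2 with overlapping tiles, 2 over all starts, and 5 to 19 with 1 library left out. For H3K4me3 bodies 0 became 4 under median centring, 46 with the mean filter and 1 after input subtraction. For H3K27me3 bodies 2 became 1 under median centring and with the pseudocount of 0.5 RPM, 16 with the mean filter, 32 with edgeR and 0 after input subtraction, with overlapping tiles, with the replicate block, with mitochondrial coverage as a block and with any 1 library left out (0 to 0). For H3K36me3 bodies 0 became 5 with overlapping tiles, 144 with edgeR and 0 to 4 with 1 library left out. The cause was not tested.

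Small differences of single genes changed sign. In RNA, with 1 library left out, Mbp ran from -0.15 to 0.15, Mag from -0.30 to 0.045 and Cnp from -0.0019 to 0.26, and Cnp was at -0.0019 with the replicate block. In H3K4me3 at promoters Mbp turned to 0.16 under median centring, 0.078 after input subtraction and 0.0639 with edgeR, with -0.16 to 0.11 over single libraries left out; Cnp turned to 0.0761 and 0.23 in the first 2, with -0.25 to 0.0342; Bcas1 turned to -0.0176 with the larger pseudocount, with -0.20 to 0.48. In H3K27me3 at promoters Mbp turned to 0.0374 under median centring, 0.11 after input subtraction, 0.0411 with overlapping tiles and 0.0306 with edgeR (-0.22 to 0.13 with 1 library left out), Cnp to 0.0481 with overlapping tiles, and Opalin to -0.0001 with the larger pseudocount and -0.13 with mitochondrial coverage as a block (-0.34 to 0.33), while Mog ran from -0.49 to 0.055. In H3K36me3 at promoters Mobp turned to 0.11 after input subtraction (-0.17 to 0.11), and with 1 library left out Mbp ran from -0.46 to 0.0661, Opalin from -0.0398 to 0.62 and Ermn from -0.40 to 0.18. Over bodies Mog ran from -0.19 to 0.0062 in H3K27me3, and Mal from -0.22 to 0.0347 and Opalin from -0.31 to 0.0032 in H3K36me3; H3K4me3 at the inner Mbp start ran from -0.60 to 0.10. The inner Mobp start passed in H3K4me3 (adjusted p = 0.0049, limma) with the mean filter alone.

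Replicate numbers did not pair the libraries: same-numbered RNA libraries correlated at 0.14, -0.05, -0.05 and -0.05 in their deviations, and H3K4me3 promoters at 0.07, -0.26 and 0.23. With the replicate block RNA had 16 calls, Bcas1 missed the threshold, and each mark had 0 calls at promoters and over bodies.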
